A study of Mus musculus with 12 samples.

Results

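The expression difference between the Fmr1 knockout line and the FVB strain without immune stimulus was described by comparing 4 saline-treated Fmr1 knockout libraries with 4 saline-treated FVB libraries. These 8 libraries, chosen by the genotype and treatment labels, are part of a set of 12, and all 19166 expressed genes were compared. The tissue is mouse cerebellum, narrowed by the series title to crus 1, a lobule of the lateral hemisphere, and bulk RNA was sequenced. FVB is an inbred strain that carried no labelled mutation here. The knockout samples, titled sham, received saline too. The other 4 libraries came from Fmr1 knockout mice injected intraperitoneally with poly(I:C), a synthetic double-stranded RNA, and they entered the model only as a separate group that adds to the estimate of spread. Their levels are given beside some genes, without a test, and are called the treated knockout. Age, sex, substrain, littermate status and whether each library came from a separate animal are not stated in the labels, and the p-values therefore measure spread between samples that may be technical. A difference between the groups cannot be told apart from any other difference between the knockout line and these FVB mice. In bulk tissue, fewer cells of a type and less RNA per cell cannot be told apart either.

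Fmr1 encodes FMRP, an RNA-binding protein that associates with messenger RNAs of neurons, many of them long transcripts of synaptic proteins, and restrains their translation. Silencing of the gene causes fragile X syndrome in people, and the knockout mouse is the usual model. The cerebellar cortex is built from granule cells, Purkinje cells, which carry its only output, a few kinds of interneuron, and Bergmann glia. Purkinje cells rely on glutamate signalling through phospholipase C, inositol trisphosphate and release of calcium from internal stores, a pathway long studied in fragile X models. Because FMRP acts mainly on translation, transcript levels show only a part of what its loss may change.

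Fmr1 itself separated the groups. Its level was 91.8, 85.5, 95.03 and 108 counts-per-million (CPM) in FVB 1 to 4 and 28.7, 33.6, 27.9 and 36.7 CPM in saline knockout 1 to 4, so every knockout library was below every FVB library, and the fitted level was 33.4% of that in FVB (log2 fold change −1.58, SE 0.0884, adjusted p = 8.74e-09). The counts cover the whole gene and do not show which part of the transcript remained. The paralogs Fxr1 and Fxr2, which encode related RNA-binding proteins, were not called (Fxr1 66.4 ± 9.12 and 65.5 ± 8.36 CPM, adjusted p = 0.972; Fxr2 141 ± 1.94 and 141 ± 6.09 CPM, adjusted p = 0.985; SD, n = 4). Of 21 tested members of a list of Fmr1 relatives and FMRP partners, Fmr1 alone was called.

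The 8 libraries held 35.2 to 50.2 M counts and 25300 to 27502 detected genes, with 4.203 to 5.87% of counts from mitochondrial genes. Markers of granule cells summed to 9918 to 11054 CPM in FVB and 10252 to 11120.0 CPM in the saline knockout, and those of Purkinje cells to 12133 to 13174 and 11588 to 13996 CPM. Saline knockout 2 stood apart: Ttr, the main transcript of the choroid plexus, was at 4156 CPM there, against 7.64 to 24.98 CPM in the other saline knockout libraries and 7.97 to 65.3 CPM in FVB. Treated knockout 2 and 3 had Ttr above 1000 CPM as well, so values without these 3 libraries are used below as an alternative that was chosen after seeing the data.

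With edgeR's quasi-likelihood test and Benjamini-Hochberg adjustment at 0.05, 294 of the 19166 genes were called (1.53%), 156 higher (0.814%) and 138 lower (0.72%) in the saline knockout. Before adjustment, 2299 of the 19166 had a p under 0.05, the background for such counts in the lists below. Most of the transcriptome was close to equal: 73.9% of the tested genes lay within 0.25 of zero on the log2 scale, the median log2 fold change was 0.0033, and the common biological coefficient of variation was 0.152. The called differences were often large, since 128 of them were at least 2-fold (80 higher, 48 lower) and 58 at least 4-fold (44 higher, 14 lower), while 117 were under 1.5-fold. Fold changes of the called genes were larger at low abundance. Called genes with a mean under 0 on the log2 CPM scale had a median absolute log2 fold change of 2.66, and those above 6 had one of 0.38. In 285 of the 294 the 4 knockout libraries did not overlap the 4 FVB libraries, against 7.02% of all tested genes. The 294 were selected by a test on these same libraries, so the lack of overlap is description and no separate support.

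The count itself depended on single libraries. Leaving out any 1 FVB library left 156 (without FVB 3) to 194 (without FVB 2) calls, 176 without FVB 1 and 161 without FVB 4, and leaving out saline knockout 2 left 182. A core of 120 of the 294 genes, 65 higher and 55 lower, stayed called when each of the 12 libraries was left out in turn and when the 3 libraries high in Ttr were left out together, and 62 of them differed at least 2-fold. The genes said below to have risen or fallen belong to these 120 unless the omissions that ended their call are given. Those of them that the naming rule does not cover are marked as chosen after their values were seen.

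**Figure D1:**
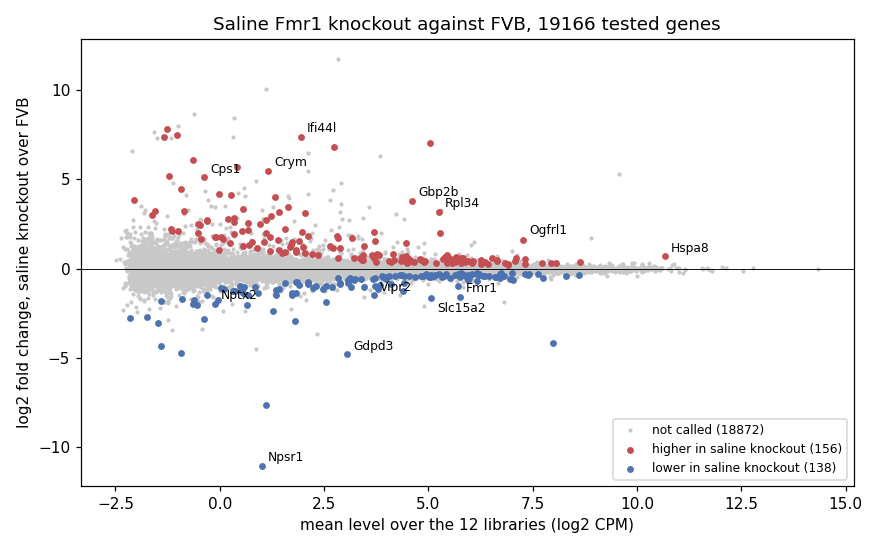
Log2 fold change of the saline knockout over FVB (vertical axis) against the mean level over the 12 libraries in log2 CPM (horizontal axis) for 19166 tested genes, with the 156 called higher in red and the 138 called lower in blue. The grey cloud narrows around zero as the level rises, and Npsr1, Gdpd3 and Fmr1 lie far below it while Gbp2b, Rpl34 and Ogfrl1 lie above.

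Npsr1, the G-protein-coupled receptor for neuropeptide S, was at 5.204, 5.88, 6.37 and 6.78 CPM in FVB and had 0 counts in all 4 saline knockout libraries, against 967 counts over FVB. Taking 3 counts over the group as the floor, it was at least 339-fold lower (adjusted p = 5.63e-08), and all 4 treated knockout libraries were at 0 too. Vipr2, a receptor for vasoactive intestinal peptide and PACAP that raises cyclic AMP, was at 22.98, 17.8, 17.8 and 16.1 CPM in FVB and 6.803, 6.83, 6.46 and 6.27 CPM in the saline knockout (log2 fold change −1.50, SE 0.138, adjusted p = 4.94e-06). No saline knockout library came near the lowest FVB library, and the treated knockout lay between, at 10.2 to 15.9 CPM. In a list of 29 tested neuropeptide and receptor genes these 2 were called, both lower, and 15 members had a positive fold change.

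The inositol trisphosphate route held 2 further called members. Itpr3, a receptor that lets calcium out of the endoplasmic reticulum, fell from 23.3, 20.3, 23.9 and 16.7 CPM in FVB to 8.99, 9.35, 10.7 and 9 CPM (log2 fold change −1.15, SE 0.118, adjusted p = 2.12e-05). Plcb3, a phospholipase C that makes inositol trisphosphate and marks a subset of Purkinje cells, fell from 102, 95.9, 92.6 and 93.7 to 79.4, 66.3, 78.7 and 67.8 CPM (log2 fold change −0.39, SE 0.0679, adjusted p = 0.0034). Groups did not overlap for either gene, but Itpr3 was 2.21-fold and Plcb3 1.31-fold lower. Over the 39 tested members of the fragile X signalling list, 2 were called (Itpr3 and Nptx2, both lower), 28 were negative and the median log2 fold change was −0.07.

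Single genes of cyclic nucleotide and calcium handling changed by smaller amounts. Adcy5, an adenylyl cyclase, was at 73.4, 75.5, 73.7 and 69.1 CPM in FVB and 59.8, 57.4, 60.9 and 50.03 CPM in the saline knockout (log2 fold change −0.36, SE 0.07003, adjusted p = 0.0117). Pde1b, a calcium-dependent phosphodiesterase that breaks cyclic nucleotides down, was also lower, at 40.7 ± 2.295 and 30.6 ± 1.71 CPM (log2 fold change −0.41, SE 0.0687, adjusted p = 0.00279). In the other direction Atp2b4, a pump that exports calcium across the plasma membrane, was at 41.6, 42.6, 44.1 and 42.8 CPM in FVB and 64.5, 67.3, 72.02 and 58.2 CPM in the saline knockout (log2 fold change 0.61, SE 0.0753, adjusted p = 1.35e-04). The 4 FVB values of Atp2b4 lay within 3 CPM of each other and all below the lowest knockout value. Grk5, a kinase that desensitises G-protein-coupled receptors, rose 1.41-fold (adjusted p = 0.00128), and Bmpr1b, a receptor for bone morphogenetic proteins, rose 1.53-fold (adjusted p = 8.60e-04). Pde1b, Atp2b4, Grk5 and Bmpr1b were chosen after their values were seen.

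**Figure D2:**
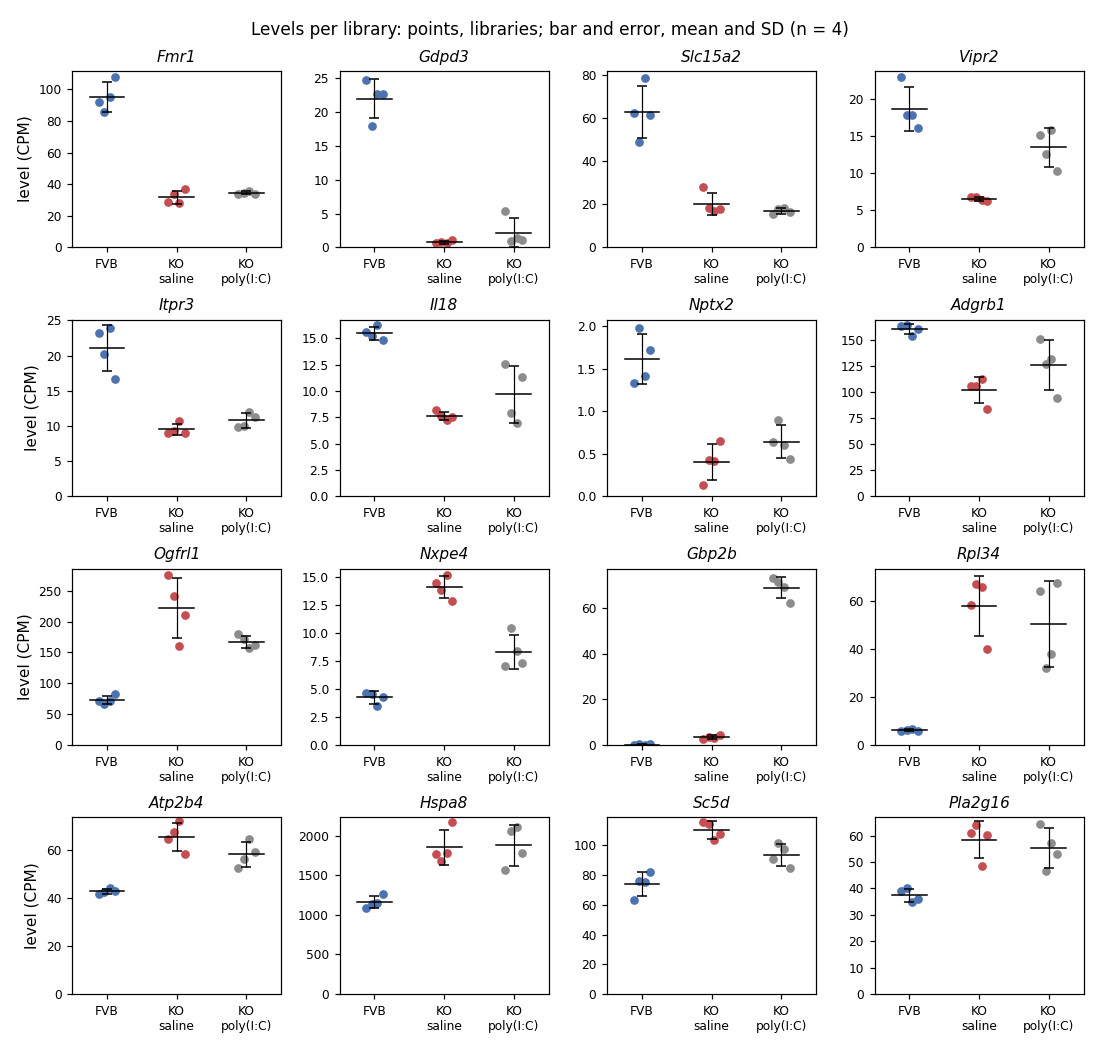
Level in CPM (vertical axes, from 0) of 16 called genes in FVB, saline knockout and treated knockout libraries, with 1 point per library and the mean and SD of 4 libraries as bar and error. Fmr1 to Adgrb1 are lower in every saline knockout library than in any FVB library, and Ogfrl1 to Pla2g16 are higher.

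Single genes for synaptic and surface proteins fell as well. Nptx2, a secreted pentraxin that clusters AMPA receptors, was scarce, at 1.34, 1.99, 1.42 and 1.72 CPM in FVB and 0.1303, 0.428, 0.4101 and 0.648 CPM in the saline knockout (log2 fold change −1.97, SE 0.357, adjusted p = 0.0055). It was the single called gene among 25 tested immediate early genes. Rims3, a protein of the presynaptic active zone, was abundant and fell by less, from 456, 515, 481 and 471 to 374, 370.3, 400.3 and 333 CPM (log2 fold change −0.38, SE 0.0687, adjusted p = 0.00529). Cd47, the surface protein that inhibits phagocytosis, fell from 374, 393, 352 and 393 to 284, 305, 288 and 269 CPM (log2 fold change −0.40, SE 0.0594, adjusted p = 0.00105). For both, the SD within each group was a small part of the difference between groups. Syt17, of the synaptotagmin family, fell 1.97-fold (adjusted p = 0.00173) and Resp18, a protein of secretory granules, 1.74-fold (adjusted p = 0.00126). The adhesion molecules Clmp (72.8 ± 7.405 and 37 ± 2.39 CPM, adjusted p = 3.64e-04) and Opcml (129.8 ± 15.03 and 91.4 ± 5.15 CPM, adjusted p = 0.00199) and the neurotrophin receptor Ngfr (10.99 ± 1.68 and 6.01 ± 0.374 CPM, adjusted p = 0.00754) were lower as well (SD, n = 4); Opcml and Ngfr were chosen after their values were seen.

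Among 52 tested FMRP-bound long neuronal transcripts, 3 were called and all were lower (5.77%, against 1.53% of all genes). They were Adcy5 and the adhesion receptors Adgrb1 and Adgrb2, which act at synapses. Adgrb1 was at 164, 164, 154 and 161 CPM in FVB and 106, 106, 113 and 84.05 CPM in the saline knockout (log2 fold change −0.65, SE 0.1202, adjusted p = 0.0139). Its call ended without FVB 1, FVB 2 or FVB 4 (adjusted p 0.0504 to 0.0536) and without the 3 libraries high in Ttr (0.0767). Adgrb2, at 121 ± 6.44 and 100.8 ± 5.53 CPM (SD, n = 4; adjusted p = 0.0251), lost its call without FVB 2, FVB 3, FVB 4, saline knockout 1 or saline knockout 2 (0.0554 to 0.0987) and without the libraries high in Ttr (0.146). Of the 52 transcripts 44 had a negative fold change, with a median of −0.10 on the log2 scale, beside 0.0033 and 50.9% positive over all tested genes. Other neuronal lists leaned the same way. Negative were 25 of 31 GABAergic and glycinergic synapse genes (median −0.11) and 30 of 39 ion channels of cerebellar firing (−0.07). Of 20 granule cell markers 9 were negative and 11 positive. The summed level of the FMRP-bound list overlapped, at 20494 to 21445 CPM in FVB and 17175 to 21299 CPM in the saline knockout. Shank1, a postsynaptic scaffold, was at 216 ± 21.3 and 178 ± 15.8 CPM (adjusted p = 0.0604) and Gabbr2, a subunit of the GABA-B receptor, at 391 ± 28.2 and 327 ± 28.1 CPM (adjusted p = 0.0757), with no overlap of the groups but no call.

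Other neuronal lists had few calls. Over all 19166 tested genes, 2299 were at an unadjusted p under 0.05 by edgeR. None of 41 tested glutamatergic synapse genes was called by edgeR (11 at an unadjusted p under 0.05, median log2 fold change −0.07). DESeq2 called 4 and limma-voom 0, and by edgeR the nearest was Cacng8, an auxiliary subunit of AMPA receptors (6.02 ± 0.431 and 3.93 ± 0.192 CPM, adjusted p = 0.0504). Of 31 GABAergic and glycinergic synapse genes 1 was called, Gabra3, a subunit of the GABA-A receptor, at 18.1 ± 1.84 and 13.05 ± 0.776 CPM (adjusted p = 0.0366). Without FVB 1, FVB 3, FVB 4, saline knockout 1, saline knockout 2, saline knockout 3 or saline knockout 4 it was no longer called (0.064 to 0.114), nor without the libraries high in Ttr (0.0685). Among 39 ion channels of cerebellar firing, the potassium channels Kcnk1 (184 ± 18.2 and 146 ± 12.02 CPM, adjusted p = 0.0261) and Kcnd3 (143 ± 6.37 and 119 ± 5.12 CPM, adjusted p = 0.0273) were called lower. Kcnk1 was not called without FVB 2, FVB 3, FVB 4, saline knockout 2 or saline knockout 3 (0.0541 to 0.108), nor Kcnd3 without FVB 1, FVB 4, saline knockout 1, saline knockout 3 or saline knockout 4 (0.0532 to 0.0942); without the libraries high in Ttr they were at 0.0775 and 0.0575. None of 49 tested autism risk genes was called by edgeR (9 at an unadjusted p under 0.05), against 2 by DESeq2 and 0 by limma-voom.

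Single lipid genes changed. Gdpd3, a lysophospholipase D that makes lysophosphatidic acid, showed the largest fall after Npsr1 among genes averaging 1 or more on the log2 CPM scale whose names are not predicted ones. It was at 24.7, 17.9, 22.7 and 22.6 CPM in FVB and 0.704, 0.731, 0.615 and 1.08 CPM in the saline knockout (log2 fold change −4.79, SE 0.576, adjusted p = 0.00279). The highest knockout library held a small part of the lowest FVB library. In the treated knockout, library 1 was at 5.32 CPM and the other 3 at 0.921 to 1.39 CPM. Pla2g16, a phospholipase and acyltransferase, rose from 38.96, 40.04, 34.9 and 35.9 to 61.1, 64.05, 48.4 and 60.3 CPM (log2 fold change 0.64, SE 0.0983, adjusted p = 0.00136). Gdpd3 was the single called gene of 30 tested in the list of lysophospholipid and glycerophospholipid metabolism, which did not include Pla2g16.

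In cholesterol metabolism an enzyme of synthesis rose and the enzyme of removal fell. Sc5d, the desaturase near the end of the synthetic pathway, rose from 62.99, 75.8, 75.4 and 82.1 CPM in FVB to 116, 114, 103 and 108 CPM (log2 fold change 0.58, SE 0.0779, adjusted p = 4.13e-04). Cyp46a1, the neuronal 24-hydroxylase through which brain disposes of cholesterol, fell from 38.96, 42.7, 38.8 and 39.9 to 26.6, 28.04, 31.5 and 30.6 CPM (log2 fold change −0.46, SE 0.0753, adjusted p = 0.00244). Groups did not overlap for either gene.

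Sc5d was the single called member of 22 tested cholesterol synthesis genes, although 21 of the 22 had a positive fold change and the median was 0.21 on the log2 scale. Hmgcs1, an early enzyme of the pathway, was at 97.6, 130.1, 121 and 136 CPM in FVB and 149, 159, 140.3 and 149 CPM in the saline knockout (adjusted p = 0.239), so its groups did not overlap but it was not called. The 250 bases before the start site of Sc5d, the called gene, and of Hmgcs1, a classical sterol-controlled gene that was not called, are shown from RefSeq on GRCm38.p6 at chr9:42264301-42264550 (minus strand) and chr13:119690101-119690350 (plus strand). Capitals mark matches on either strand to 2 motifs that do not overlap each other, the core of the sterol response element, TCACNCCAC, and the CCAAT box, which reads ATTGG on the other strand.
Sc5d: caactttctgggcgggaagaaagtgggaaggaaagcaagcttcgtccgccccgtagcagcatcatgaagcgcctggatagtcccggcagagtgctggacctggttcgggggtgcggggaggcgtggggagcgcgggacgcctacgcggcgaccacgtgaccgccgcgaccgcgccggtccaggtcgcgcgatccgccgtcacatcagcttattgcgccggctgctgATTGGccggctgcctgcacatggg
Hmgcs1: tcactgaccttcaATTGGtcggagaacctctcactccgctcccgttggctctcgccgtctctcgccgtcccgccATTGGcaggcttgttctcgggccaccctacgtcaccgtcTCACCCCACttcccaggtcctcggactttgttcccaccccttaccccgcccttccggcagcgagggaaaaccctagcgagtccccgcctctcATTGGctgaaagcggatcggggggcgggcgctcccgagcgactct
Of 20 promoters matched to 17 of the 22 genes, 16 held CCAAT (80%), against 33.8% of all 32851 promoters, and 1 held TCACNCCAC, that of Hmgcs1, against 1.05% of all. In Sc5d the CCAAT match began 24 bases before the start site and TCACNCCAC was not in the window. A match is a description of the letters and was not tested for binding.

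Immune genes moved in both directions, mostly at low level. Il18, a cytokine of the IL-1 family, was at 15.6, 15.2, 16.3 and 14.9 CPM in FVB and 8.19, 7.63, 7.28 and 7.49 CPM in the saline knockout (log2 fold change −1.02, SE 0.1495, adjusted p = 9.21e-04). The 4 values of each group were tightly spaced and far apart from the other group. Crlf2, a chain of the receptor for thymic stromal lymphopoietin, fell 2.16-fold (adjusted p = 0.00857). Fcrls, a microglial receptor-like protein, fell from 4.29, 4.37, 3.49 and 4.098 to 2.29, 1.64, 1.38 and 1.73 CPM (log2 fold change −1.20, SE 0.203, adjusted p = 0.00301) and was the single called gene of 27 tested microglia markers. The summed level of those markers was 243 to 279 CPM in FVB and 213 to 271 CPM in the saline knockout. Of the IL-17 system none of 14 tested genes was called by edgeR (2 at an unadjusted p under 0.05, 1 called by DESeq2 and 0 by limma-voom), Il17a had 0 counts in every library, and the receptor chains Il17ra (12.98 ± 1.58 and 12.3 ± 1.63 CPM, adjusted p = 0.87) and Il17rc (3.58 ± 0.557 and 3.69 ± 0.576 CPM, adjusted p = 0.963) differed by less than their SD (n = 4).

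A few interferon-inducible genes were higher without any poly(I:C). Gbp2b, a guanylate-binding GTPase of host defence, was at 0.171, 0.371, 0.162 and 0.328 CPM in FVB and 2.87, 3.48, 3.204 and 4.598 CPM in the saline knockout (log2 fold change 3.80, SE 0.214, adjusted p = 1.21e-08), and at 62.4 to 73.1 CPM in the treated knockout. Ifi44l, without a count in FVB, was at 0.287, 0.6803, 0.487 and 0.452 CPM in saline knockout 1 to 4. This was at least 25.2-fold higher (adjusted p = 2.15e-05), with 8.61 to 12.3 CPM in the treated knockout. Mndal, of the p200 family of nucleic acid binding proteins, was at 0.0353 ± 0.0275 and 0.665 ± 0.476 CPM (SD, n = 4; adjusted p = 0.00226). In the saline knockout all 3 stayed far below their treated levels. Gbp6 (0.548 ± 0.222 and 1.53 ± 0.606 CPM) and Irgm2 (3.08 ± 0.738 and 7.25 ± 2.21 CPM), further GTPases of this kind, were called higher (adjusted p = 0.0252 and 0.0369). Of 18 tested interferon-inducible GTPase genes 3 were called, all higher, while 6 had a negative log2 fold change, the lowest at −1.42. Gbp6 lost its call without FVB 2, FVB 3, FVB 4, saline knockout 1 or saline knockout 2 (0.0579 to 0.0937), Irgm2 without FVB 1, FVB 3, FVB 4, saline knockout 2 or saline knockout 4 (0.0856 to 0.131), and both without the libraries high in Ttr (0.102 and 0.0668).

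These 4, Gbp2b, Ifi44l, Gbp6 and Irgm2, were the called members of 52 tested interferon-stimulated genes (7.69%), of which 46 lay above zero (median log2 fold change 0.40). Ifit1 and Irf7, widely used reporters of the response, overlapped between the groups. Ifit1 was at 2.59, 2.73, 2.53 and 2.46 and 2.37, 5.57, 2.79 and 3.46 CPM (adjusted p = 0.391) and Irf7 at 2.32 ± 1.23 and 3.57 ± 0.6595 CPM (SD, n = 4; adjusted p = 0.538). The highest Ifit1 value came from saline knockout 2, the library high in Ttr, and the list's median was 0.29 without the 3 such libraries. None of 22 tested genes of MHC class I presentation was called by edgeR (6 at an unadjusted p under 0.05), against 3, all higher, by DESeq2 and 0 by limma-voom.

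Markers of neutrophils and monocytes had the largest share of calls of any list, 5 of 16 tested (31.2%), all higher, with a median log2 fold change of 2.05. Of the 20 members of the list, 16 passed the low-count filter. S100a8 and Ltf, at most 0.191 and 0.203 CPM in FVB, passed it only through knockout libraries. For Ngp, described below, FVB libraries alone would not have been enough, as only FVB 1 (0.3697 CPM) was above 0.203 CPM. The share, the direction and the median are therefore tilted toward the knockout by the filter and are description only. S100a8 and S100a9 encode the subunits of calprotectin, the main cytosolic protein of neutrophils. S100a8 was at 0.114, 0.159, 0.122 and 0.191 CPM in FVB and 0.7299, 2.797, 5.51 and 1.43 CPM in the saline knockout (log2 fold change 4.14, SE 0.712, adjusted p = 0.0119), and S100a9 at 1.02, 0.318, 0.649 and 0.355 and 1.72, 5.37, 10.8 and 3.24 CPM (log2 fold change 3.17, SE 0.643, adjusted p = 0.0432). Saline knockout 3 was highest and saline knockout 1 lowest for both, and for the granule protein gene Ltf, at 0.0569, 0.0795, 0.203 and 0.164 and 0.469, 2.37, 4.998 and 1.61 CPM (adjusted p = 0.0461). Ngp, another granule gene, followed the same order at 0.3697, 0.106, 0.203 and 0.164 and 0.469, 3.85, 8.59 and 1.101 CPM without a call (adjusted p = 0.143). The whole list summed to 19.5 to 32.1 CPM in FVB, 34.1 to 75 CPM in the saline knockout and 49.9 to 119.6 CPM in the treated knockout. Erythrocyte markers, another sign of blood, summed to 156 to 751 CPM in FVB and 220.2 to 390.4 CPM in the saline knockout, with none of 8 called by edgeR, DESeq2 or limma-voom and 0 at an unadjusted p under 0.05. The part of blood cells left in the tissue in these results was not tested.

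None of the 5 neutrophil and monocyte calls survived every single omission. S100a8 missed without any 1 of the FVB libraries (0.0544 to 0.0637), and limma-voom called 1 of the 16 markers where DESeq2 called 9. S100a9 missed without FVB 1, FVB 2, FVB 3, FVB 4, saline knockout 2, saline knockout 4, treated knockout 1, treated knockout 2 or treated knockout 4 (0.0509 to 0.136), and Ltf without FVB 1, FVB 2, FVB 3, FVB 4, saline knockout 2, saline knockout 4, treated knockout 2 or treated knockout 4 (0.0654 to 0.142). Itgal, an integrin of leukocytes, at 2.63 ± 1.097 and 9.42 ± 1.58 CPM (adjusted p = 0.0374), missed without FVB 1, FVB 3, FVB 4, saline knockout 1, saline knockout 2, saline knockout 3, saline knockout 4, treated knockout 2 or treated knockout 3 (0.0549 to 0.123). Without the 3 libraries high in Ttr, S100a8 and Ltf stayed called (0.0114 and 0.0313) and S100a9 and Itgal did not (0.108 and 0.191).

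**Figure D3:**
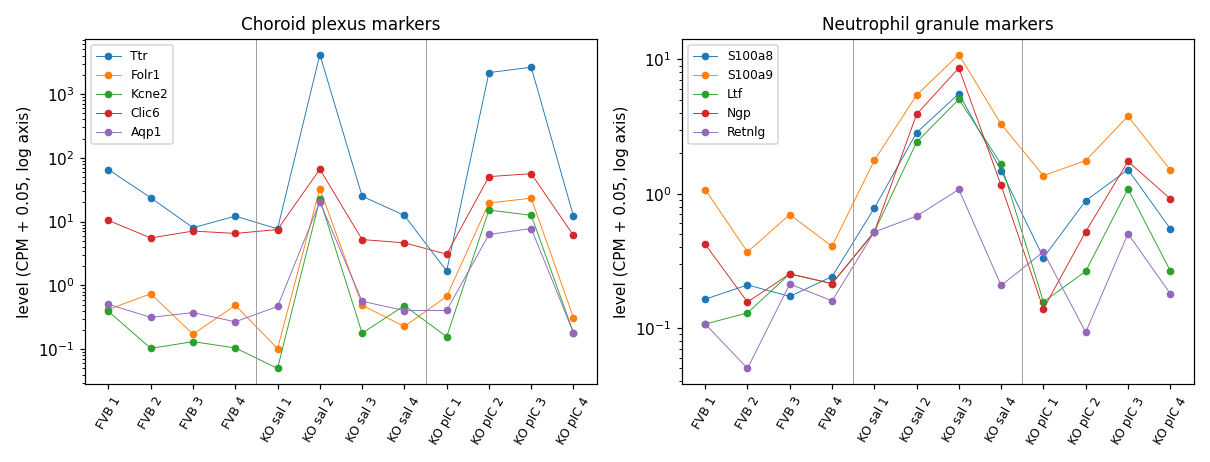
Level in CPM plus 0.05 on a log axis (vertical) of 5 choroid plexus markers (left) and 5 neutrophil granule markers (right) in each of the 12 libraries (horizontal axis; KO sal, saline knockout; KO pIC, treated knockout). Ttr exceeds 1000 CPM in saline knockout 2 and treated knockout 2 and 3, while the neutrophil markers are highest in saline knockout 3.

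Among transcripts of protein folding and synthesis, the abundant chaperone Hspa8 stood out. Hspa8, the constitutive Hsc70, was at 1087, 1135, 1153 and 1267 CPM in FVB and 1772, 1675, 1783 and 2176 CPM in the saline knockout (log2 fold change 0.67, SE 0.0959, adjusted p = 8.60e-04). It was the single called member of 38 tested heat shock proteins and chaperones, of which 29 had a negative fold change (median −0.08). Hspa1b, the stress-induced relative, was at 10.2 ± 0.398 and 4.99 ± 3.4 CPM (SD, n = 4; adjusted p = 0.347). Eif3k, a subunit of the initiation factor eIF3, rose 1.38-fold from 62.3 ± 5.82 CPM (adjusted p = 0.00226) as the single call of 66 initiation and elongation factors, with 1.52% called. Srp9, of the signal recognition particle, rose from 30.9, 27.7, 28.1 and 27.7 to 56.8, 58.2, 36.7 and 41.9 CPM (log2 fold change 0.76, SE 0.122, adjusted p = 0.00334) and was chosen after its values were seen.

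Rpl34, which encodes a protein of the large ribosomal subunit, was counted at 6.06, 6.41, 6.89 and 6.09 CPM in FVB and 58.5, 67.1, 65.8 and 40.1 CPM in the saline knockout (log2 fold change 3.18, SE 0.283, adjusted p = 4.24e-04). It was the single call of 86 tested cytosolic ribosomal protein genes (1.16%). Ribosomal protein genes have many near-identical processed copies, and the rule for reads that match several places, not given in the sources used here, leaves this value uncertain. None of 99 nuclear and 13 mitochondrially encoded genes of oxidative phosphorylation was called by edgeR, DESeq2 or limma-voom (3 and 1 at an unadjusted p under 0.05 by edgeR). Ogfrl1 was at 72.1, 66.7, 71.9 and 82.1 CPM in FVB and 275, 241, 161 and 211 CPM in the saline knockout (log2 fold change 1.60, SE 0.132, adjusted p = 2.78e-05). Lancl1, a glutathione-binding protein of brain, rose 1.35-fold from 115 ± 4.64 CPM (adjusted p = 0.00126), and Ubash3b, a tyrosine phosphatase, 1.48-fold from 107 ± 13.1 CPM (adjusted p = 0.00168). Nxpe4 rose from 4.69, 4.58, 3.49 and 4.26 to 14.5, 13.9, 15.2 and 12.9 CPM (log2 fold change 1.73, SE 0.141, adjusted p = 1.03e-06), with 7.03 to 10.4 CPM in the treated knockout.

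Transport and matrix genes added further single changes. Slc15a2, the transporter of short peptides in choroid plexus and astrocytes, was at 62.3, 49.2, 78.9 and 61.4 CPM in FVB and 27.9, 18.3, 17.05 and 17.8 CPM in the saline knockout (log2 fold change −1.64, SE 0.166, adjusted p = 1.92e-04). Saline knockout 2, with its high Ttr, did not stand out for Slc15a2, and the call held without the libraries high in Ttr (0.00504). Of 308 tested solute carriers 5 were called (1.62%), 4 of them higher. Fxyd7, a regulator of the sodium pump, rose from 6.597, 7.31, 4.603 and 6.04 to 12.6, 16.8, 18.7 and 23.8 CPM (log2 fold change 1.56, SE 0.194, adjusted p = 5.55e-04). Col6a3, a chain of collagen VI, fell from 5.74, 7.05, 6.92 and 5.35 to 1.72, 3.43, 2.72 and 1.97 CPM (log2 fold change −1.35, SE 0.216, adjusted p = 0.0019), and Abi3bp, another matrix protein, from 13.8, 13.5, 12.6 and 13.8 to 6.699, 7.36, 6.41 and 5.91 CPM (log2 fold change −1.02, SE 0.1299, adjusted p = 2.00e-04). Of 52 tested collagens and laminins 2 were called (3.85%), Col6a3 and, in the other direction, Col11a2, a chain of collagen XI (6.97 ± 0.45 and 10.6 ± 1.81 CPM, SD, n = 4; adjusted p = 0.0215). The Col11a2 call ended without FVB 2, FVB 3, FVB 4, saline knockout 2 or saline knockout 3 (0.0611 to 0.0756) and without the libraries high in Ttr (0.0823). Chil1, a secreted chitinase-like protein of astrocytes that was chosen after its values were seen, fell 1.94-fold from 20.5 ± 3.04 CPM (adjusted p = 0.00322). Itih3, which binds hyaluronan and was the single call of 20 astrocyte and Bergmann glia markers, rose 1.43-fold from 126 ± 13.2 CPM (adjusted p = 0.00322).

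Further genes rose singly, most of them at low level. The troponin I genes of slow skeletal muscle, Tnni1 (0.256, 0.371, 0.426 and 0.847 CPM in FVB and 1.77, 2.37, 2.23 and 2.201 CPM in the saline knockout), and of heart, Tnni3 (0.227, 0.583, 0.406 and 0.683 and 2.09, 1.69, 1.61 and 2.71 CPM), rose 4.51-fold and 4.27-fold (adjusted p = 3.84e-04 and 0.0034). Ppp1r12b, a regulatory subunit of myosin phosphatase, rose 1.32-fold from 80.8 ± 2.91 CPM (adjusted p = 0.0034). Crym, which encodes a thyroid hormone-binding protein, was at 0, 0.106, 0 and 0.0546 CPM in FVB and 1.67, 1.34, 2.97 and 1.36 CPM in the saline knockout (log2 fold change 5.48, SE 0.569, adjusted p = 6.44e-05), and at 3.17 to 6.49 CPM in the treated knockout. Cth, an enzyme that makes cysteine, rose 2.47-fold from 1.12 ± 0.491 CPM (adjusted p = 0.00619). Nuf2, a kinetochore protein of mitosis, was at 0.985 ± 0.34 and 2.95 ± 0.618 CPM (SD, n = 4; adjusted p = 0.0034). Tnni1, Tnni3, Ppp1r12b and Cth were chosen after their values were seen and form no list that was tested.

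Marker lists of the main cell types had few calls and medians near zero. None of 20 granule cell markers was called by edgeR (3 at an unadjusted p under 0.05, median log2 fold change 0.0033), and 1 of 24 Purkinje cell markers was (Plcb3, median −0.02). None was called by edgeR among 20 oligodendrocyte and myelin genes (2 at an unadjusted p under 0.05), 12 oligodendrocyte precursor (0), 20 endothelial (1) and 13 mural cell markers (1). DESeq2 called 1 endothelial marker and none of the other lists without a call, and limma-voom called none. Among 20 interneuron and Golgi cell markers, 17 had a negative fold change (median −0.13) and Sorcs3, a sorting receptor, was called lower at 35.7 ± 2.47 and 26.9 ± 2.12 CPM (adjusted p = 0.0424). The Sorcs3 call ended without FVB 1, FVB 2, FVB 3, FVB 4, saline knockout 2, saline knockout 3, saline knockout 4 or treated knockout 2 (0.0519 to 0.132) and without the libraries high in Ttr (0.137). Of 20 astrocyte and Bergmann glia markers 18 were positive, with a median of only 0.06. The 17 tested choroid plexus epithelium markers were all positive with a median of 1.97 and no call by edgeR, DESeq2 or limma-voom (2 at an unadjusted p under 0.05), and the median was 0.02 without saline knockout 2. Of 22 circadian clock genes 1 was called, Bhlhe41, a repressor of the clock, at 32.8 ± 1.84 and 41.04 ± 1.13 CPM (adjusted p = 0.0139, and 0.0649 without FVB 3). Of the 22, 8 were at an unadjusted p under 0.05 by edgeR, beside 2299 of all 19166 tested genes. In 5 the groups did not overlap, all higher, while 14 had a positive and 8 a negative fold change. None of 24 glucocorticoid-responsive genes was called by edgeR (3 at an unadjusted p under 0.05, 1 called by DESeq2 and 0 by limma-voom).

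**Figure D4:**
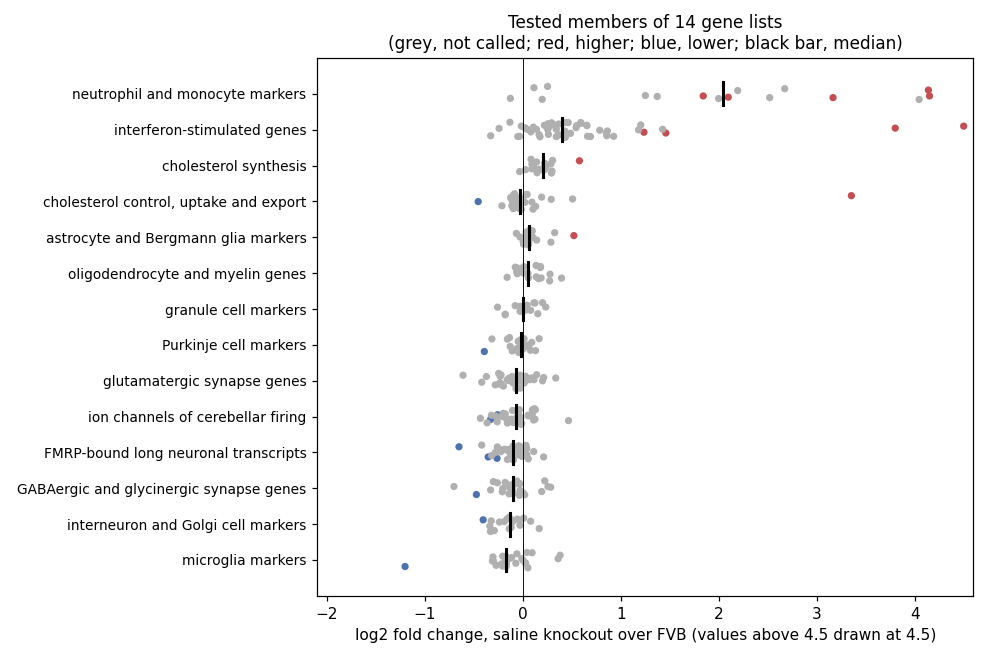
Log2 fold change of the saline knockout over FVB (horizontal axis) of the tested members of 14 gene lists (vertical axis), with 1 point per gene, called genes in red (higher) or blue (lower) and the list median as a black bar. The medians of the cell type and synaptic lists lie within 0.2 of zero, those of interferon-stimulated genes and of neutrophil and monocyte markers at 0.40 and 2.05.

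At the extreme, 6 called genes were under 0.1 CPM in all libraries of 1 group and at or above 0.5 CPM in all of the other. Of these, 3 were present in the saline knockout and 3 in FVB, and 4 of the 6 have predicted names and are only counted here. The named ones were Npsr1, described above, and Cps1, the enzyme that starts the urea cycle. Cps1 was at 0.0569, 0, 0.0406 and 0 CPM in FVB and 0.886, 0.983, 0.923 and 1.04 CPM in the saline knockout, 39.3-fold higher (log2 fold change 5.10, SE 0.531, adjusted p = 2.15e-05). The treated knockout libraries were at 0.694 to 1.54 CPM, so all 8 knockout libraries were above all FVB libraries. With limits of 0.2 and 1 CPM the count was 6 as well, but 3 of these had predicted names and Cps1 was not among them, as its lowest knockout library was below 1 CPM.

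Called genes were unevenly spread over the autosomes and X, by the gene order of GRCm38. Chromosome 1 had 41 calls among 1161 tested genes (3.53%), chromosome 3 had 28 of 961 (2.91%), chromosome 9 had 30 of 1074 (2.79%) and chromosome 12 had 18 of 706 (2.55%), against 1.53% overall. On chromosome 10 it was 2 of 871 (0.23%), on chromosome 8 it was 5 of 963 (0.519%) and on chromosome 2 it was 8 of 1431 (0.559%). The X chromosome, which carries Fmr1, had 5 of 619 (0.808%). Both directions occurred on the chromosomes with most calls, with 27 higher and 14 lower on chromosome 1 and 12 higher and 18 lower on chromosome 9. Of the 120 genes that stayed called at every omission, 22 were on chromosome 1 and 19 on chromosome 9.

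**Figure D5:**
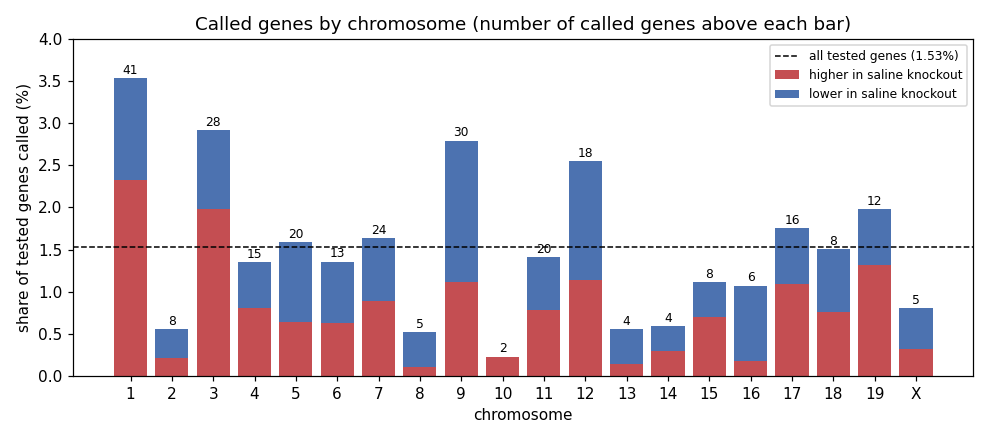
Share of tested genes called, in percent (vertical axis, from 0), on chromosomes 1 to 19 and X (horizontal axis; Y and the mitochondrial genome, with 8 and 20 tested genes, are not drawn), split into genes higher (red) and lower (blue) in the saline knockout, with the number of calls above each bar. Chromosomes 1, 3, 9 and 12 exceed 2.5%, and of those drawn chromosome 10 is lowest at 0.23%, beside the dashed line at 1.53% for all tested genes.

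Called genes also sat next to each other. With at most 2 tested genes between them, 69 of 288 called genes with a position (24%) formed 30 runs of 2 to 4. Calls made up 1.53% of all tested genes, and the share in runs for calls placed at random was not computed. Some runs were members of 1 gene family, such as S100a8 and S100a9, Fxyd7 and Fxyd1, or Dynlt1b, Dynlt1c and Dynlt1f. The Fxyd1 call ended without any 1 FVB library or without saline knockout 2, 3 or 4 (edgeR adjusted p 0.0576 to 0.116). It also ended without the libraries high in Ttr (0.122). Dynlt1c lost its call without any 1 FVB library, saline knockout 1, 2 or 3, or treated knockout 1 or 3 (0.0567 to 0.166). Dynlt1f lost its call without FVB 3 (0.0509). Neighbours could move in opposite ways or together. Next to Npsr1 on chromosome 9, Dpy19l1 fell from 95.6, 108, 99.6 and 99.2 to 58.8, 64.1, 61.6 and 60.3 CPM (log2 fold change −0.72, SE 0.0671, adjusted p = 6.27e-06). On each autosome and X, the window of 40 tested genes with the most calls was picked, and these windows were not tested. On chromosomes 8 and 10 the fullest window held 1 call. With Clmp, Hspa8, Ubash3b and Sc5d, the fullest on chromosome 9, from Vsig2 to Rnf26, held 11 calls, 6 higher and 5 lower. Within it Rnf26, a ubiquitin ligase, rose from 0.313, 0.238, 0.264 and 0.273 to 2.09, 2.24, 1.61 and 1.85 CPM (log2 fold change 2.83, SE 0.291, adjusted p = 2.12e-05) and Vsig2 rose 3.98-fold (adjusted p = 0.00196). Syt17 and Itpripl2 (2.22-fold lower, adjusted p = 0.00279) were neighbours on chromosome 7, Col6a3 and Mlph (2.05-fold lower, adjusted p = 0.013) on chromosome 1, and Lancl1 and Cps1, both higher, on chromosome 1.

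The fullest window of 40 tested genes on chromosome 12, from Exoc3l4 to Pacs2, also held 11 calls (6 higher, 5 lower). That of chromosome 5, from Mfsd7a to Fbrsl1, held 8, of which 7 were lower. Both were picked for their number of calls. The Exoc3l4 call ended without FVB 2, FVB 4 or saline knockout 2 (0.0523 to 0.0707). That of Pacs2 ended without FVB 1, FVB 3, FVB 4, saline knockout 1, saline knockout 2 or saline knockout 3 (0.0516 to 0.0818), and both ended without the libraries high in Ttr (0.0642 and 0.0582). In the chromosome 5 window Zfp605, a zinc finger gene, fell from 35.2, 25.5, 32.7 and 43.1 to 15.9, 14.3, 11.8 and 15.1 CPM (log2 fold change −1.26, SE 0.137, adjusted p = 6.44e-05), and Crlf2 lay there too. On chromosome 17, Tmem181a fell 1.58-fold (adjusted p = 8.60e-04) next to Dynlt1b, a dynein light chain with near-identical neighbours, which was at 0.199, 0.0795, 0.122 and 0 CPM in FVB and 12.4, 12.4, 13.2 and 7.98 CPM in the saline knockout (adjusted p = 0.0279). Treated knockout 2 was at 0.236 CPM for Dynlt1b, as low as FVB, while the other treated libraries were at 7.28 to 13.4 CPM. The Dynlt1b call ended without FVB 1, FVB 2, FVB 3, FVB 4, saline knockout 1, saline knockout 2 or saline knockout 3 (0.0548 to 0.0977). It held without the libraries high in Ttr, treated knockout 2 among them (2.90e-07), and with only the FVB and saline knockout libraries (1.86e-07). On chromosome 3 the neighbours Alpk1, a kinase that senses a bacterial sugar, and Tifa, its adaptor, rose 2.94-fold and 2.21-fold (adjusted p = 0.0258 and 0.0243). Treated knockout 2 had the lowest level of the treated libraries for both (2.1 and 5.08 CPM). Both calls ended without FVB 1, FVB 2, FVB 3, FVB 4, saline knockout 1, saline knockout 2 or saline knockout 3 (0.0613 to 0.0889 and 0.0571 to 0.0891). Alpk1 stayed called without the libraries high in Ttr (0.0045) and with only the FVB and saline knockout libraries (0.00166).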

How the data were processed

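Bulk RNA sequencing libraries of crus 1 were made from TRIzol RNA with a TruSeq kit, per the labels' protocols. The deposited read counts per gene came from Trim Galore, HISAT2 and featureCounts on GRCm39, per the submitters' processing notes; versions, strand setting and annotation release: not given in the sources used here. Gene symbols and gene order came from GENCODE M21 (GRCm38), which named 52029 of 57010 genes (99.4% of counts), and promoters from RefSeq.

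Genes passing filterByExpr (minimum count 10, minimum total 15) were scaled by TMM and fitted in edgeR 4.0.16 (R 4.3.3) with robust quasi-likelihood on 3 group means of 4 libraries, 9 residual degrees of freedom, without a replicate block; the contrast was saline knockout minus FVB. A gene is called, or said to rise or fall, at a Benjamini-Hochberg adjusted p under 0.05. Values are TMM-scaled CPM, as mean ± SD over 4 libraries. The floor for absent genes is 3 counts over a group and covers counting error only. The fit was tested on simulated data.

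The text names Fmr1, the IL-17 genes Il17a, Il17ra and Il17rc, further the 15 largest rises and falls (mean log2 CPM at least 1, no overlap), the 10 most abundant calls each way, near on-off genes, for each list up to 5 members with the smallest p, and called neighbours. Predicted genes are counted only. Some eligible genes are not reported here. Outside this rule, Fxr1, Fxr2, Hmgcs1, Ifit1, Irf7, Ngp, Srp9 and the genes so marked in the text were chosen after their values were seen. Members and lists were chosen with earlier results of these data known. Alternatives were DESeq2 1.42.0, limma-voom (limma 3.58.1), other scalings and filters, a replicate block, only 8 libraries, no robust estimation, and omission of each library. A fit without the libraries high in Ttr, and log2 Ttr as a covariate, were added after seeing the data.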

Additional observations from a re-analysis of the deposited data

Results flagged for a closer look

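In groups of 4, a library was singled out when the gap between it and its nearest neighbour divided by the group's range was above Dixon's critical value. Over 214 such groups of called genes chance alone would single out about 1 in 20, and 10 were found. In the saline knockout these were Slc15a2 (0.888, library 1 at 27.9 CPM against 17.04 to 18.3 CPM), Kcnk1 (0.875, library 3 at 128 CPM against 151 to 154 CPM), Dynlt1b (0.838, library 4 at 7.98 CPM against 12.4 to 13.2 CPM), Pcdhb3 (0.878, library 4 at 5.38 CPM against 6.13 to 6.23 CPM), Thumpd1 (0.883) and Snhg8, a host gene of small nucleolar RNA (0.846). In FVB they were Tmem88 (0.892, library 2 at 1.48 CPM against 0.892 to 0.956 CPM), Lyrm7 (0.844, library 2 at 2.36 CPM against 3.82 to 4.09 CPM), Zfp932 (0.839) and Arhgap20 (0.885). The calls of Thumpd1 and Lyrm7 ended without FVB 4 (0.0544 and 0.0525), that of Snhg8 without any 1 of the FVB or saline knockout libraries (0.0514 to 0.119), that of Arhgap20 without FVB 4, saline knockout 2, saline knockout 3 or saline knockout 4 (0.0611 to 0.0964) and without the libraries high in Ttr (0.0971), and that of Zfp932 without the libraries high in Ttr (0.0623); values in brackets are edgeR adjusted p. No group's range reached the other group's in Slc15a2, Tmem88, Lyrm7 or Dynlt1b.

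Of the library measures in the saline knockout, total counts (0.945) were set apart by library 4 at 50.2 M, and the mitochondrial share (0.882) and the share of the 10 most abundant genes (0.93) by library 3, at 4.203% and 5.24%. Ttr (0.996) was set apart by library 2 at 4156 CPM. Library 3, with the lowest mitochondrial share, also had the highest neutrophil markers, and the part of either measure in the results was not tested.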

How the results depend on the processing

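The 294 calls became 633 by DESeq2 and 506 without a low-count filter. They were 156 to 263 when 1 FVB or saline knockout library was left out (176, 194, 156 and 161 without FVB 1 to 4, and 223, 182, 211 and 263 without saline knockout 1 to 4) and 284 to 300 when 1 treated library was. The other settings gave 225 (limma-voom) to 327 (8 libraries only), and 229 without the libraries high in Ttr, of which 185 were among the 294. In all settings together 115 of the 294 stayed called. The replicate numbers did not pair the samples: same-numbered FVB and saline knockout deviations correlated at 0.04, −0.09, −0.06 and 0.03, and 1 of 4 FVB libraries correlated best with its own number. A fit with the replicate block called 274 genes, 235 of them among the 294. Neighbouring calls were 69 with at most 2 tested genes between, 35 with none and 109 with at most 5. The uncalled IL-17 receptor chains changed sign: the log2 fold change of Il17ra ran from −0.174 to 0.0089 over the omissions of 1 library, positive without FVB 1, and that of Il17rc from −0.057 to 0.143, negative without FVB 2 and saline knockout 2 (−0.031), without the libraries high in Ttr (−0.033) and with log2 Ttr as covariate (−0.018). The cause of these differences was not tested. Of called genes named in the text, limma-voom did not call Col11a2 (0.067), Snhg8 (0.066), Gabra3 (0.0558), Sorcs3 (0.0585), Gbp6 (0.15), Irgm2 (0.0917), S100a8 (0.0545), S100a9 (0.0513), Ltf (0.0808), Dynlt1b (0.261), Alpk1 (0.121) and Tifa (0.0599). Nor did limma-voom call Fxyd1 (0.0617) or Dynlt1c (0.111). With 8 libraries only, Adgrb2 (0.0532) and S100a9 (0.0859) were not called. With the replicate block Alpk1 (0.0606), Dynlt1b (0.0832), Dynlt1c (0.122), Snhg8 (0.0587) and Pacs2 (0.052) were not. With log2 Ttr as covariate Gabra3 (0.0523), Irgm2 (0.0554), Itgal (0.0659), Sorcs3 (0.0503) and Dynlt1c (0.0741) were not called. Depth limits low genes, whose calls under 0 log2 CPM had a median absolute log2 fold change of 2.66.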

Other observations

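Further called genes that stayed called at every single omission and without the libraries high in Ttr, and that were chosen after their values were seen, spanned other functions. Higher in the saline knockout were Trpv2, a cation channel (FVB 9.68 ± 1.296 and knockout 16.6 ± 2.897 CPM, log2 fold change 0.78, SE 0.146, adjusted p = 0.00782), Ech1, an enzyme of fatty acid oxidation (37.8 ± 2.42 and 53.1 ± 5.16 CPM, log2 fold change 0.49, SE 0.0819, adjusted p = 0.00265), Neu2, a cytosolic sialidase (0.206 ± 0.138 and 1.29 ± 0.476 CPM, log2 fold change 2.64, SE 0.433, adjusted p = 0.00234), and Rras2, a small GTPase (7.47 ± 0.441 and 12.5 ± 0.991 CPM, log2 fold change 0.74, SE 0.114, adjusted p = 0.00128). Lower were Wfs1, a membrane protein of the endoplasmic reticulum (48.99 ± 3.19 and 36 ± 3.43 CPM, log2 fold change −0.44, SE 0.0785, adjusted p = 0.0045), St3gal4, a sialyltransferase (42.1 ± 2.48 and 31.9 ± 1.23 CPM, log2 fold change −0.40, SE 0.07799, adjusted p = 0.0102), Maml3, a coactivator of Notch (33.3 ± 2.27 and 24.9 ± 0.648 CPM, log2 fold change −0.42, SE 0.0726, adjusted p = 0.00399), and Dgkh, a diacylglycerol kinase (117 ± 11.2 and 84.6 ± 10.7 CPM, log2 fold change −0.47, SE 0.0847, adjusted p = 0.00529). Adjusted p-values are from edgeR's quasi-likelihood test with n = 4 and SD as error.

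Among protocadherins, cell adhesion genes arranged in clusters, 48 of 66 tested had a negative fold change with a median of −0.10 on the log2 scale, and 2 were called, both lower. Pcdhga11 was at 12.3 ± 1.97 and 7.77 ± 0.824 CPM (SD, n = 4; edgeR, adjusted p = 0.0224) and was not called without FVB 2, FVB 3, saline knockout 3 or saline knockout 4 (0.0598 to 0.081). Pcdhb3 was at 8.63 ± 0.563 and 5.98 ± 0.398 CPM (edgeR, adjusted p = 0.0427) and lost its call without any 1 of the FVB or saline knockout libraries (0.0701 to 0.126) and without the libraries high in Ttr (0.0671).

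A lymphocyte marker rested on a single library. Igkc, an immunoglobulin light chain gene, was at 0.313, 6.57, 0.892 and 0.3005 CPM in the FVB libraries, against 2.53, 2.34, 7.66 and 60.4 CPM in saline knockout 1 to 4 (edgeR, adjusted p = 0.459).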
